A study of Homo sapiens with 9 samples.

Results

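Collagens are the main structural proteins of the extracellular matrix. Each molecule is a helix wound from several α-chains, and each chain has a gene of its own, so that the transcripts a cell holds set which molecules it can assemble. Fibrillar collagens form the load-bearing fibres, type IV collagens form the sheet-like network of the basement membrane, and the remaining families decorate fibrils, build microfibrils or anchoring structures, or span the cell membrane. Newly made chains are hydroxylated and folded in the endoplasmic reticulum before export, and breast cancer cells both deposit and cut collagen as they move through tissue.

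The collagen chain genes were all rows of the expression files whose gene name consists of COL, a number, A and a number. There were 44 of them among 61552 listed genes: 11 fibrillar chains, 6 type IV (basement membrane) chains and 27 chains of other families. They were measured by RNA-seq in MDA-MB-231, an established human triple-negative breast cancer line, labelled wild type (WT) in every library. Cells were kept for 24 h with 10 mM 2-DG (2-deoxy-D-glucose), 20 mM 2-DG or no 2-DG (0 mM, the saline control), and each condition had 3 libraries. This analogue of glucose is taken up by cells and impairs glycolysis and protein glycosylation. The comparison asks how the collagen transcripts of this line stood under each dose of that agent. Nothing in the labels states that libraries came from separate cultures, so the p-values measure the spread between these libraries only, which may be technical.

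Values are FPKM, that is, reads or fragments per length of gene and per depth of library. Levels can be compared between genes as far as the gene lengths used hold. The library totals recovered from them lay between 30974968 and 40843638, and the recovered reads are used below where a gene is low. ESR1 and PGR, the hormone receptors whose absence defines triple-negative tumours, were under 0.03 FPKM in every library, while ERBB2 had 8.81 FPKM in the control and 5.76 at 20 mM 2-DG. The summed level of 5 mesenchymal markers of this line (VIM, CD44, AXL, CAV1 and FN1) lay between 634 and 650 FPKM in the control, between 561 and 605 at 10 mM and between 535 and 563 at 20 mM 2-DG, with no treated library in the control range. VIM had means of 285, 289 and 274 FPKM, and CAV1, a protein of membrane caveolae, of 103, 66.4 and 62.4. The part of this fall of the marker sum in the collagen values was not tested. Of 8 fibroblast markers, cells that would bring collagen of their own, 7 were under 1 FPKM throughout and POSTN was at 0. The summed level of those 8 lay between 1.82 and 2.28 FPKM in the control, between 1.26 and 1.69 at 10 mM and between 1.41 and 1.63 at 20 mM 2-DG. In bulk RNA, fewer cells of a type and less RNA per cell cannot be told apart.

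The genes of type IV chains are arranged in head-to-head pairs, which share the stretch between their start sites. Because COL4A1 and COL4A2, and COL4A5 and COL4A6, fell in pairs at 20 mM 2-DG, the stretches before their starts are shown first, followed by those of COL17A1, which rose, and COL9A2, which fell. All 4 come from RefSeq (GRCh38.p14), are written 5′ to 3′, and carry in capitals every match to a CCAAT box (CCAAT), a GC box (GGGCGG) or a TATA box (TATAAA) on either strand. The COL4A1 to COL4A2 sequence is the whole stretch of 126 bases between the RefSeq starts, chr13:110307158-110307283, read on the plus strand toward COL4A2.
COL4A1 to COL4A2: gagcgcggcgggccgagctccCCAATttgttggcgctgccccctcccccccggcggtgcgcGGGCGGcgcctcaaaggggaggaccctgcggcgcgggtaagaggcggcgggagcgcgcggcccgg
The 250 bases before the COL4A5 start lie at chrX:108439588-108439837 on the plus strand, and the COL4A6 start of RefSeq faces it from 379 bases away.
COL4A5 upstream: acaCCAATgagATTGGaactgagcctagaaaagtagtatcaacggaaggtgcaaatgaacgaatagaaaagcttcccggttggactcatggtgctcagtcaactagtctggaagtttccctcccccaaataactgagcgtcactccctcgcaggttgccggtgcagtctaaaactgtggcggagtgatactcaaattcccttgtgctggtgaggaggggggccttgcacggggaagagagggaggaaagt
The 250 bases before the COL17A1 start lie at chr10:104085881-104086130 on the minus strand.
COL17A1 upstream: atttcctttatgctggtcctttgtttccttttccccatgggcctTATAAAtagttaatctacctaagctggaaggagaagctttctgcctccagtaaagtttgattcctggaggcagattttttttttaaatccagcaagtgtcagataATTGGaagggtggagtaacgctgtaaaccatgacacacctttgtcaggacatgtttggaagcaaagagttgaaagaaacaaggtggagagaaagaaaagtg
The 250 bases before the COL9A2 start lie at chr1:40317287-40317536 on the minus strand.
COL9A2 upstream: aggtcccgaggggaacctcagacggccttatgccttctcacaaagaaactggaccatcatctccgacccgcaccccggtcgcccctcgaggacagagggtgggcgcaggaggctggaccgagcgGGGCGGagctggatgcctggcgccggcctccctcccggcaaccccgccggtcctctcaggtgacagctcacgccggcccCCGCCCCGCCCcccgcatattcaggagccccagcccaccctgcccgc

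The COL4A1 to COL4A2 stretch held a CCAAT box and a GC box and was 80.2% G or C. The COL4A5 stretch held a CCAAT box on each strand, at positions 4 and 12 counted from its 5′ end, and no GC box. COL17A1 had a TATA box at position 45 and a CCAAT box on the strand opposite to the one printed, in a stretch that was only 40.4% G or C, and COL9A2 had 3 GC boxes, of which the last pair overlapped by a base. The 44 RefSeq windows of 300 bases (250 before and 50 after a start) matched 32 of the 44 collagen genes. They covered 20 of the 27 chains tested below, and not COL1A1, COL1A2, COL5A2, COL6A1, COL8A1, COL9A3 and COL20A1. In these windows CCAAT occurred in 31.8% and GGGCGG in 54.5%. Among all 35116 windows these shares were 34.6% and 45%. TATAAA occurred in 18.2% of the collagen windows and in 11.5% of all. The ER stress element, searched as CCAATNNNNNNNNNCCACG on both strands, occurred in 0 of the 44 windows and in 27 of all 35116. COL4A3 and COL4A4, the remaining type IV pair, have RefSeq starts 418 bases apart on chromosome 2.

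Of the 44 chains, 27 had enough reads to be tested (scaled to the median depth, 10 reads or more in 3 or more libraries, and 15 or more over all of them). Another 13 had between 1 and 44 reads over all 9 libraries and at most 0.0792 FPKM in any, and COL5A3, COL9A1, COL22A1 and COL25A1 had 0 reads. A chain could pass through one condition alone, and the tested chains are therefore not all the members. The mean was at least 1 FPKM in some condition for 16 chains and at least 10 FPKM for 7. COL6A1 alone made up 28.3% and COL6A2 15.3% of the collagen FPKM over the 9 libraries, ahead of COL7A1 with 10.5%, COL13A1 with 8.88% and COL18A1 with 8.61%. Type I collagen, the main collagen of stroma, was a minor species: COL1A1 contributed 0.790% and COL1A2 0.0181%.

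**Figure D1:**
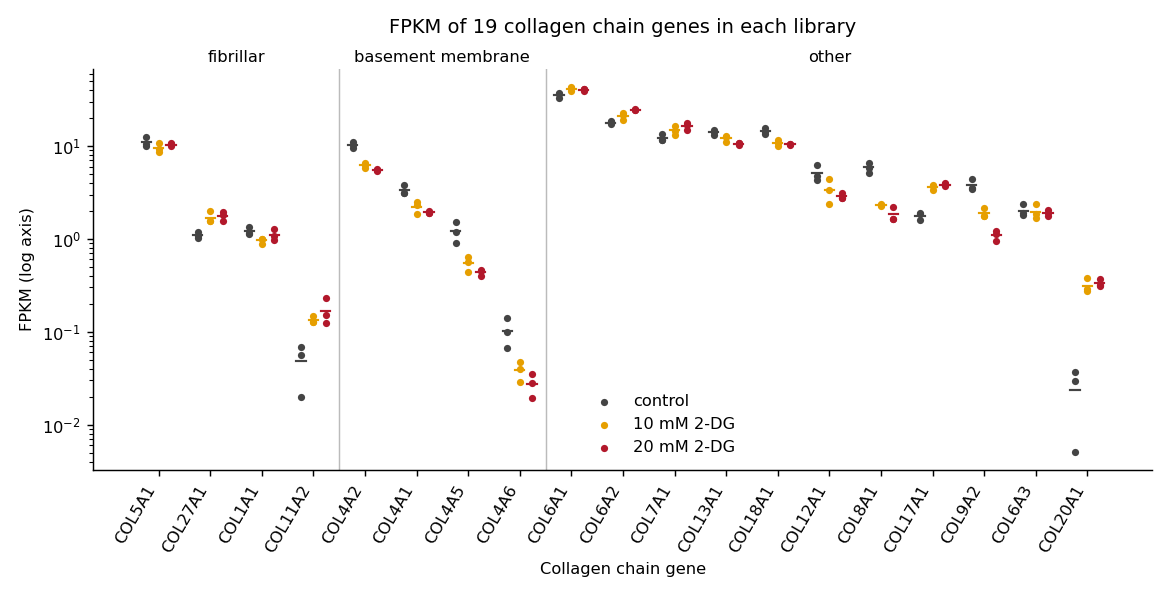
FPKM (log axis) of 19 collagen chain genes, grouped by class, in each of the 9 libraries: dots are libraries, short lines are means, grey is the control, orange 10 mM and red 20 mM 2-DG. COL4A1, COL4A2, COL4A5, COL8A1 and COL9A2 step down from the control, COL17A1 and COL27A1 step up, and COL20A1 rises from 0.0239 to 0.332 FPKM while COL6A1 stays the most abundant chain at 35.3 to 41.2 FPKM.

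Changes were tested with limma on log2(FPKM + 1) in a fit over all 16572 genes with enough reads, and a chain was called higher or lower at a Benjamini-Hochberg adjusted p under 0.05. At 10 mM 2-DG, 5 of the 27 tested chains were higher (18.5%, against 12.1% of all genes tested) and 6 were lower (22.2%, against 17.5% of all genes). The higher chains were COL6A1, COL6A2, COL17A1, COL20A1 and COL27A1, and the lower ones COL4A1, COL4A2, COL4A5, COL8A1, COL9A2 and COL18A1. At 20 mM 2-DG, 7 were higher (25.9%, against 15.4%) and 9 lower (33.3%, against 21.6%). The same 11 chains were called in the same directions, and COL7A1, COL11A2, COL12A1, COL13A1 and COL4A6 passed in addition. Both comparisons use the same 3 control libraries. The median difference over the 27 chains was -0.04 at 10 mM and -0.06 at 20 mM on the log2(FPKM + 1) scale, against -0.01 and -0.02 over all genes tested.

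Between the doses no chain was called. Of the 27 chains, 0 were higher and 0 lower at 20 mM than at 10 mM 2-DG by limma's adjusted p, 3 had an unadjusted p under 0.05, and limma-voom on the recovered reads also called 0. Over all genes the shares called were 0% higher and 0% lower, with 1139 genes at an unadjusted p under 0.05. The study's thresholds were a p under 0.05, taken here before adjustment, and a log2 fold change beyond 1 in size. They were applied to limma's values, where the fold is a difference of log2(FPKM + 1) and so understates low chains. With them 0 chains were higher and 1, COL8A1, was lower at 10 mM, against 0.579% and 1.16% of all genes. At 20 mM these thresholds gave 0 higher chains and 2 lower, COL8A1 and COL9A2, against 0.965% and 1.96% of all genes. On limma-voom's scale, which adds no FPKM (a comparison added after the data were seen), the same thresholds gave 4 higher and 4 lower chains at 10 mM, against 4.41% and 5.17% of all genes, and 4 higher and 5 lower at 20 mM, against 5.59% and 7.2%. The higher ones were COL11A2, COL17A1, COL20A1 and COL24A1 at both doses, and the lower ones COL4A5, COL4A6, COL8A1 and COL9A3, with COL9A2 in addition at 20 mM. The count of higher chains at 10 mM rested on small differences. It was 3 in place of 5 without control library 1, without control library 3, without 10 mM library 1 or 2, or with no filter on low genes. Over all genes, the higher ones then numbered 1505, 1577, 1824 and 2043 of 16572 without those libraries, and 1412 of 32806 with no filter. The main fit gave 2011 of 16572.

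**Figure D2:**
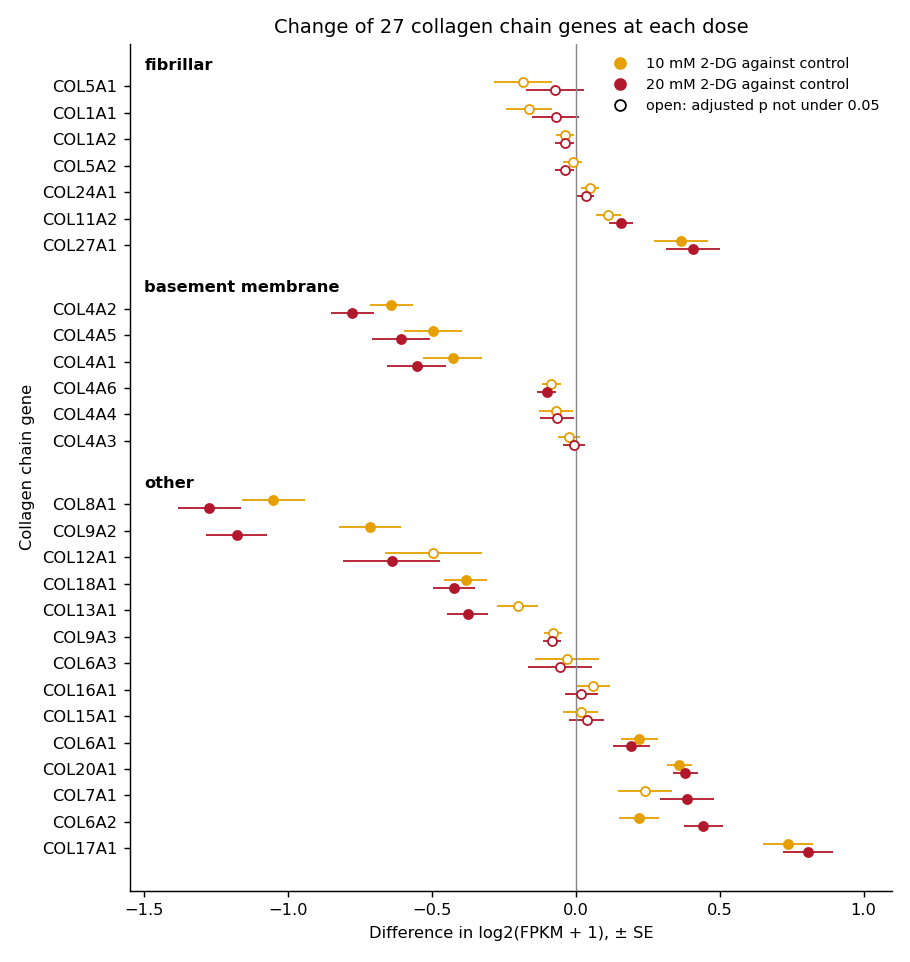
Difference in log2(FPKM + 1) from the control (x axis, with its SE from limma) of the 27 tested collagen chains at 10 mM (orange) and 20 mM 2-DG (red), by class. Filled points have an adjusted p under 0.05. All called type IV chains lie to the left, down to -0.78 for COL4A2, while the largest rise is COL17A1 at 0.81 and the largest fall COL8A1 at -1.27.

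Of the 6 type IV chains, the network formers of the basement membrane, 3 were lower at 10 mM (50%, against 17.5% of all genes tested) and 4 at 20 mM 2-DG (66.7%, against 21.6%). All 6 were tested, and COL4A3 and COL4A4 were not called. At either dose 0 were called higher, against 12.1% of all genes at 10 mM and 15.4% at 20 mM. Their median difference was -0.26 at 10 mM and -0.33 at 20 mM. COL4A1 and COL4A2 encode the chains that combine into the common type IV molecule found in nearly all basement membranes. COL4A2 (chr13:110305812-110513209, plus strand) had 10.2, 11 and 9.41 FPKM in the control, 6.56, 5.72 and 6.23 at 10 mM and 5.53, 5.44 and 5.60 at 20 mM 2-DG. COL4A1 (chr13:110148963-110307233, minus strand) had 3.14, 3.76 and 3.09 FPKM in the control, 2.51, 1.87 and 2.29 at 10 mM and 1.92, 1.90 and 2.02 at 20 mM. For both chains every treated library lay below every control library. The mean of COL4A2 was 1.65-fold lower at 10 mM (difference -0.64 ± 0.08 SE, adjusted p = 0.000221 from limma) and 1.85-fold lower at 20 mM (-0.78 ± 0.08 SE, adjusted p = 4.49e-05). The mean of COL4A1 was 1.5-fold lower at 10 mM (-0.43 ± 0.10 SE, adjusted p = 0.0114 from limma) and 1.71-fold lower at 20 mM (-0.55 ± 0.10 SE, adjusted p = 0.00226).

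COL4A5 and COL4A6, on the X chromosome, encode chains of a specialised type IV network, and mutations of COL4A5 cause Alport syndrome. COL4A5 (chrX:108439844-108697545, plus strand) had 0.894, 1.52 and 1.19 FPKM in the control, 0.645, 0.443 and 0.569 at 10 mM and 0.394, 0.462 and 0.448 at 20 mM 2-DG. Its partner COL4A6 (chrX:108155607-108439497, minus strand) rested on few reads: 22, 48 and 32 in the control, 13, 11 and 15 at 10 mM and 8, 13 and 6 at 20 mM. Neither chain had a treated library within the control range. COL4A5 was 2.18-fold lower at 10 mM (-0.50 ± 0.10 SE, adjusted p = 0.00495 from limma) and 2.76-fold lower at 20 mM (-0.61 ± 0.10 SE, adjusted p = 0.00118). The summed reads of COL4A6 at 20 mM, scaled by depth, were 0.271 times those of the control, with a 95% exact binomial interval from 0.171 to 0.418 that covers counting error only. On the log2(FPKM + 1) scale, which understates changes of low genes, COL4A6 differed by -0.10 ± 0.03 SE (adjusted p = 0.0381 from limma) at 20 mM and by -0.09 ± 0.03 SE (adjusted p = 0.0818) at 10 mM. The COL4A6 call at 20 mM was lost in 6 of the 9 fits that left out a library (control 2 and 3, 10 mM 3, 20 mM 1, 2 and 3), with adjusted p-values from 0.0515 to 0.128, and the replicate block gave 0.0623. With limma-voom COL4A6 passed at both doses (adjusted p = 0.0305 at 10 mM and 0.00979 at 20 mM). With a pseudocount of 0.1 its 10 mM fall passed limma's test (adjusted p = 0.0437).

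COL4A3 and COL4A4, which build the mature network of the kidney glomerulus, were not called. COL4A4 had means of 0.313, 0.251 and 0.255 FPKM and COL4A3 of 0.0506, 0.0332 and 0.0457 for the control and the rising doses, and their libraries overlapped. The sum of the 6 type IV chains was 15.2 ± 1.42 FPKM in the control, against 9.27 ± 0.909 at 10 mM and 8.23 ± 0.179 at 20 mM 2-DG (mean ± SD, n = 3 each). As a share of all collagen FPKM it stood at 10.7%, 6.84% and 6.03%. The ratio of COL4A2 to COL4A1 was 3.07 in the control, against 2.79 at 10 mM and 2.84 at 20 mM as a geometric mean. The 20 mM libraries (2.77 to 2.88) lay below the control range (2.92 to 3.24), and the 10 mM libraries overlapped it. An exact two-sided permutation test of that ratio gave p = 0.3 at 10 mM and p = 0.1 at 20 mM, the smallest value that 3 against 3 libraries allow, and 0.45 for both after adjustment over 15 tests. The ratio of COL4A5 to COL4A6 was 12, 14.4 and 16.2, with libraries that overlapped between conditions.

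Among fibrillar chains, those of types I and V did not pass the test. At 20 mM 2-DG, 2 chains related to cartilage collagens were higher: COL27A1, with a control mean of 1.09 FPKM, and COL11A2, with 0.0481. Of the 11 fibrillar chains 7 were tested, of which 1 was higher at 10 mM and 2 at 20 mM (12.1% and 15.4% of all genes were). At either dose 0 were lower, against 17.5% of all genes at 10 mM and 21.6% at 20 mM. COL5A1, which encodes a chain that nucleates and limits the width of fibrils, was the most abundant of them, with 10.4, 12.6 and 9.97 FPKM in the control, 10.9, 8.53 and 9.27 at 10 mM and 10.4, 9.90 and 10.8 at 20 mM. Its libraries overlapped, and the differences were -0.18 ± 0.10 SE at 10 mM (adjusted p = 0.207 from limma) and -0.07 ± 0.10 SE at 20 mM (adjusted p = 0.623). COL1A1, the major chain of type I collagen, had 1.33, 1.13 and 1.15 FPKM in the control, 0.891, 0.998 and 1.008 at 10 mM and 1.26, 1.07 and 0.964 at 20 mM. The 10 mM libraries of COL1A1 lay below the control range and the 20 mM libraries overlapped it, and neither difference passed (-0.16 ± 0.08 SE, adjusted p = 0.157, and -0.07 ± 0.08 SE, adjusted p = 0.53, from limma). Its partner COL1A2 had 50 reads over the control libraries, 19 at 10 mM and 17 at 20 mM, spread unevenly over the control libraries (30, 14 and 6), and was not called.

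COL27A1, a fibrillar chain of cartilage, rose. It had 1.02, 1.18 and 1.08 FPKM in the control, 1.97, 1.56 and 1.56 at 10 mM and 1.97, 1.57 and 1.79 at 20 mM 2-DG. The treated libraries all lay above the control, 1.56-fold at 10 mM (0.36 ± 0.09 SE, adjusted p = 0.0161 from limma) and 1.63-fold at 20 mM (0.41 ± 0.09 SE, adjusted p = 0.00734). Without control library 1 the call at 10 mM was lost (adjusted p = 0.0519). COL11A2, a chain of type XI collagen that copolymerises with type II collagen in cartilage, had 18, 15 and 5 reads in the control, 33, 44 and 32 at 10 mM and 53, 44 and 30 at 20 mM. Again no treated library overlapped the control. The difference of COL11A2 was 0.11 ± 0.04 SE at 10 mM (adjusted p = 0.0688 from limma) and 0.16 ± 0.04 SE at 20 mM (adjusted p = 0.0154). Its summed reads scaled by depth were 3.43 times the control at 20 mM (95% exact binomial interval 2.37 to 5.06, for counting error only). The 20 mM call of COL11A2 was lost without control library 3 (adjusted p = 0.0588) or without 20 mM library 1 (0.0531). Its 10 mM rise passed with limma-voom (adjusted p = 0.0223), with a pseudocount of 0.1 or 0.01 (0.0318 and 0.0306), and without 20 mM library 1 (0.0421).

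Further fibrillar chains were close to the limit of detection. COL11A1, the partner of COL11A2, had 0 reads in each control library, 5, 1 and 2 at 10 mM and 6, 4 and 2 at 20 mM. Set against a floor of 3 reads over the control group and scaled by depth, the summed reads were 2.57 times that floor at 10 mM and 4.10 times at 20 mM. With the counting error of the 8 and 12 treated reads included, the lower 95% limits of the ratio were 1.65 and 2.85. COL3A1, a stromal fibrillar collagen, had 0, 1 and 0 reads in the control, 4, 1 and 2 at 10 mM and 8, 8 and 7 at 20 mM. The ratio at 20 mM was 23.6, with a 95% exact binomial interval from 3.83 to 972 that covers counting error only. Neither passed the filter, and neither was tested. COL24A1 had 0, 6 and 0 reads in the control, 5, 22 and 16 at 10 mM and 5, 19 and 7 at 20 mM, with control library 2 inside the treated range. Its difference did not pass limma's test on log2(FPKM + 1) (adjusted p = 0.27 at 10 mM and 0.422 at 20 mM). The sum over the 11 fibrillar chains was 13.4 ± 1.46 FPKM in the control, against 12.5 ± 1.39 at 10 mM and 13.5 ± 0.597 at 20 mM (mean ± SD, n = 3 each).

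**Figure D3:**
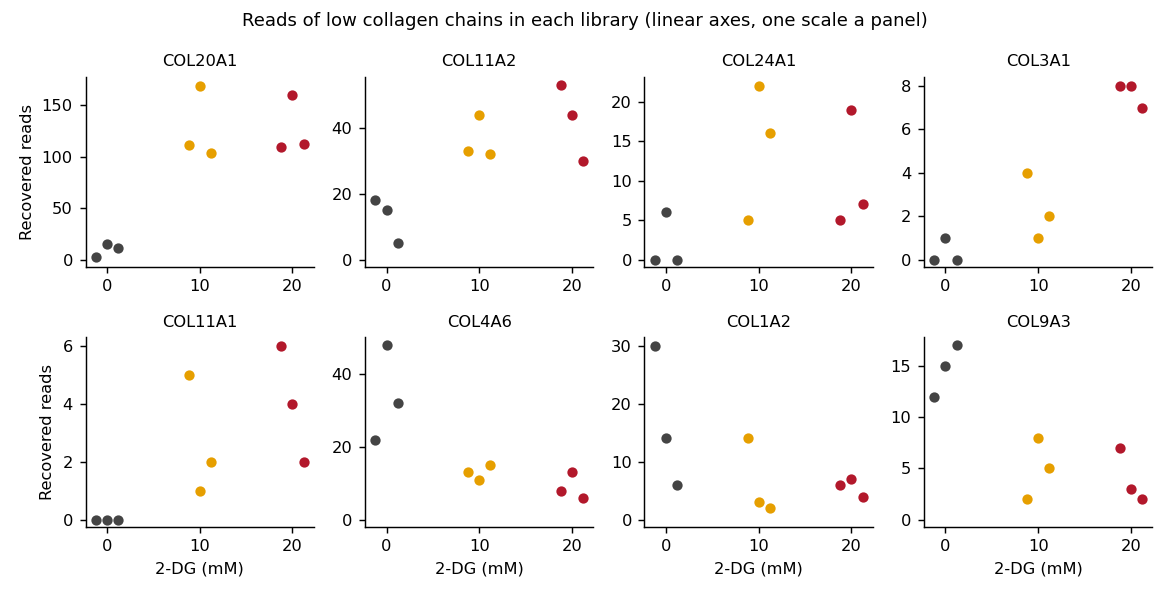
Recovered reads per library (y axis, linear, a scale of its own in each panel) of 8 collagen chains with few reads, against the dose of 2-DG in mM. COL20A1 goes from 2 to 15 reads in the control to 104 to 169 reads with 2-DG, COL11A2, COL3A1 and COL11A1 lie higher in most treated libraries, and COL4A6 and COL9A3 lie lower in all of them.

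The fibril-associated chains (FACITs), which sit on the surface of fibrils, included both a sharp rise and sharp falls. COL20A1 (chr20:63293186-63334851, plus strand), a FACIT chain, had the largest ratio of any tested collagen chain. It had 2, 15 and 11 reads in the control, 111, 169 and 104 at 10 mM and 109, 160 and 112 at 20 mM, which corresponds to means of 0.0239, 0.314 and 0.332 FPKM. The groups were far apart, and no treated library had under 104 reads. Scaled by depth, the summed reads were 13.2 times the control at 10 mM (95% exact binomial interval 9.01 to 20.2) and 14 times at 20 mM (9.50 to 21.3). These intervals cover counting error only, not the spread between libraries. On the log2(FPKM + 1) scale the difference of COL20A1 was 0.36 ± 0.04 SE at 10 mM (adjusted p = 0.000258 from limma) and 0.38 ± 0.04 SE at 20 mM (adjusted p = 0.000126).

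COL9A2, a chain of the cartilage FACIT type IX, fell at both doses. It had 4.38, 3.50 and 3.40 FPKM in the control, 1.76, 2.14 and 1.77 at 10 mM and 0.950, 1.22 and 1.12 at 20 mM, with no overlap between any of the conditions. The mean was 1.99-fold lower at 10 mM (-0.72 ± 0.11 SE, adjusted p = 0.000923 from limma) and 3.43-fold lower at 20 mM (-1.18 ± 0.11 SE, adjusted p = 2.9e-05). Between 20 mM and 10 mM COL9A2 was 1.73-fold lower (-0.46 ± 0.11 SE, unadjusted p = 0.00159 and adjusted p = 0.31 from limma), which did not pass the adjustment. Its partner COL9A3 had 44 reads over the control, 15 at 10 mM and 12 at 20 mM, lower in every treated library but without a call (adjusted p = 0.0815 and 0.0603 from limma). In the annotation, 45 bases of COL9A3 exons are shared with TCFL5 on the opposite strand, whose mean was 8.18 FPKM. Reads there cannot be told apart unless strand was used, and the part of TCFL5 in the few COL9A3 reads was not tested.

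COL12A1, a large FACIT of tendon and tumour stroma, varied between libraries of the same condition. It had 4.30, 6.27 and 4.80 FPKM in the control, 4.38, 2.39 and 3.37 at 10 mM and 2.76, 2.79 and 3.15 at 20 mM. The 20 mM libraries lay below all control libraries, while 10 mM library 1 lay within the control range. COL12A1 differed by -0.50 ± 0.17 SE at 10 mM (adjusted p = 0.0505 from limma, just short of a call) and by -0.64 ± 0.17 SE at 20 mM (adjusted p = 0.0141), and without control library 2 the latter was lost (-0.51, adjusted p = 0.0524). The 10 mM fall passed with limma-voom (adjusted p = 0.0121), with at least 10 reads in every library (0.034), with median-ratio scaling (0.0499), with a pseudocount of 0.1 or 0.01 (0.0466 and 0.0467), and without control library 1 (0.0462) or 10 mM library 1 (0.0134). Across the 1360 genes longer than 10000 bases, the median deviation from the mean of the own condition moved in the same way: -0.10, 0.08 and 0.01 on the log2 scale in control libraries 1 to 3, and 0.14, -0.14 and -0.02 in the 10 mM libraries. The group medians of those long genes differed from the control by -0.00 at 10 mM and -0.01 at 20 mM, and their part in the spread of COL12A1 was not tested. The FACIT sum, mostly COL12A1 and COL9A2, was 9.22 ± 0.807 FPKM in the control, against 5.87 ± 0.739 at 10 mM and 4.58 ± 0.282 at 20 mM (mean ± SD, n = 3 each). COL16A1, a further FACIT at 0.204 to 0.255 FPKM, was not called.

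Type VI collagen, a pericellular microfibril, was the most abundant family and the chains COL6A1 and COL6A2 rose slightly. COL6A1 had 36.2, 36.9 and 32.7 FPKM in the control, 42.4, 42.6 and 38.7 at 10 mM and 39.0, 41.4 and 40.7 at 20 mM. COL6A2 had 17.9, 18.3 and 17.2 FPKM in the control, 21.5, 22.5 and 18.8 at 10 mM and 25.0, 24.5 and 24.2 at 20 mM. All treated libraries of both chains were above all control libraries. COL6A2 was 1.18-fold higher at 10 mM (0.22 ± 0.07 SE, adjusted p = 0.0369 from limma) and 1.38-fold higher at 20 mM (0.44 ± 0.07 SE, adjusted p = 0.000808), and COL6A1 was 1.17-fold higher at 10 mM (0.22 ± 0.06 SE, adjusted p = 0.027 from limma) and 1.15-fold higher at 20 mM (0.19 ± 0.06 SE, adjusted p = 0.0396). Of these 4 calls only the rise of COL6A2 at 20 mM held in every fit that left out a library: COL6A2 at 10 mM was lost in 8 of 9 (all but that without 10 mM library 3), COL6A1 at 10 mM without control library 3, 10 mM library 1 or 10 mM library 2, and COL6A1 at 20 mM without control library 1 or 3 or any of the 20 mM libraries. COL6A1 at both doses and COL6A2 at 10 mM were also lost with no filter on low genes.

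COL6A3, the longest type VI chain, did not share the rise, with 1.79, 2.36 and 1.90 FPKM in the control, 2.35, 1.69 and 1.85 at 10 mM and 1.90, 1.75 and 2.04 at 20 mM. Its libraries overlapped, and the differences were -0.03 ± 0.11 SE and -0.06 ± 0.11 SE (adjusted p = 0.872 and 0.734 from limma). The ratio of COL6A2 to COL6A1 was 0.506 in the control, against 0.507 at 10 mM and 0.608 at 20 mM as a geometric mean. The 20 mM libraries (0.592 to 0.642) lay above both the control (0.494 to 0.526) and the 10 mM libraries (0.486 to 0.527). An exact permutation test gave p = 0.1 for 20 mM against the control, the smallest possible with 3 against 3, and 0.45 after adjustment over 15 tests. The type VI sum was 55.1 ± 3.03 FPKM in the control, against 64.1 ± 4.12 at 10 mM and 66.8 ± 0.826 at 20 mM (mean ± SD, n = 3 each), that is 38.9%, 47.3% and 48.9% of all collagen FPKM.

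**Figure D4:**
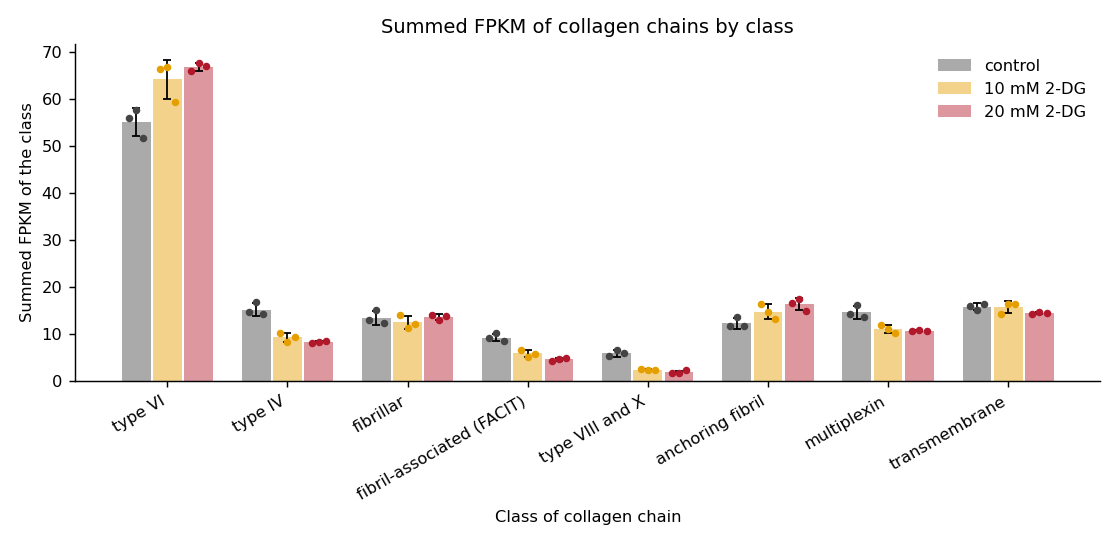
Summed FPKM (y axis, linear from 0) of each class of collagen chain: bars are means of 3 libraries, error bars are SD, dots are libraries, and grey, orange and red stand for the control, 10 mM and 20 mM 2-DG. Type VI goes from 55.1 to 66.8 and type IV from 15.2 to 8.23, while the fibrillar sum stays between 12.5 and 13.5.

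COL17A1 rose at both doses and COL7A1 at 20 mM 2-DG, both of them chains of structures that fasten epithelia. COL17A1 (chr10:104031286-104085957, minus strand) encodes the transmembrane collagen of hemidesmosomes, which fasten epithelial cells to the basement membrane. It had 1.89, 1.84 and 1.58 FPKM in the control, 3.32, 3.84 and 3.68 at 10 mM and 3.95, 3.90 and 3.67 at 20 mM. The lowest treated library of COL17A1 was far above the highest control library, and the mean was 2.04-fold higher at 10 mM (0.74 ± 0.09 SE, adjusted p = 0.000207 from limma) and 2.17-fold higher at 20 mM (0.81 ± 0.09 SE, adjusted p = 8.04e-05). COL7A1 encodes the anchoring fibrils beneath the basement membrane, and had 11.6, 13.6 and 11.6 FPKM in the control, 16.3, 14.6 and 13.2 at 10 mM and 16.7, 17.5 and 15 at 20 mM. At 10 mM the third library fell within the control range, and at 20 mM none did. COL7A1 was 1.2-fold higher at 10 mM (0.24 ± 0.09 SE, adjusted p = 0.0828 from limma) and 1.33-fold higher at 20 mM (0.39 ± 0.09 SE, adjusted p = 0.00939). The 10 mM rise of COL7A1 passed with median-ratio scaling (adjusted p = 0.0456) and without control library 2 (0.0487) or 10 mM library 3 (0.0485). It did not pass with limma-voom (adjusted p = 0.0544). The summed level of 6 luminal epithelial markers (CDH1, EPCAM, KRT8, KRT18, KRT19 and GATA3) lay lower with 2-DG, from 537 to 623 FPKM in the control libraries, from 390 to 482 at 10 mM and from 393 to 417 at 20 mM. Most of that sum was KRT8, KRT18 and KRT19, with means of 141, 150 and 270 FPKM in the control and 84.3, 138 and 180 at 20 mM. CDH1, EPCAM and GATA3 had at most 4.51 FPKM in any library. The part of this sum in these results was not tested.

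COL13A1, a transmembrane collagen of cell adhesions, moved the other way from COL17A1. It had 14.1, 13.3 and 14.8 FPKM in the control, 11, 12.6 and 12.7 at 10 mM and 10.4, 10.7 and 10.7 at 20 mM. All treated libraries lay below the control, with a 1.33-fold lower mean at 20 mM (-0.38 ± 0.07 SE, adjusted p = 0.00252 from limma) and a difference of -0.20 ± 0.07 SE at 10 mM (adjusted p = 0.0571). The 10 mM difference of COL13A1 passed with limma-voom (adjusted p = 0.0482). COL18A1, a basement membrane proteoglycan core whose C-terminal fragment is endostatin, had 14, 15.8 and 13.3 FPKM in the control, 11.5, 10.8 and 10.0 at 10 mM and 10.4, 10.6 and 10.4 at 20 mM. The conditions did not overlap with the control, and COL18A1 was 1.33-fold lower at 10 mM (-0.38 ± 0.07 SE, adjusted p = 0.00394 from limma) and 1.38-fold lower at 20 mM (-0.42 ± 0.07 SE, adjusted p = 0.00163). Its exons share 1401 bases with SLC19A1 on the opposite strand, whose mean was 0.239 FPKM. COL15A1, the related multiplexin, had 0.230 to 0.259 FPKM and was not called.

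COL8A1, a short-chain collagen of the cornea and vessel wall, had the largest fall on the log2(FPKM + 1) scale at both doses. It had 5.17, 6.63 and 5.79 FPKM in the control, 2.32, 2.24 and 2.34 at 10 mM and 1.65, 1.65 and 2.22 at 20 mM. Control and treated libraries were widely separated. COL8A1 was 2.55-fold lower at 10 mM (-1.05 ± 0.11 SE, adjusted p = 0.000106 from limma) and 3.19-fold lower at 20 mM (-1.27 ± 0.11 SE, adjusted p = 1.95e-05).

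The total over all 44 chains moved little, at 142 ± 8.72 FPKM in the control, against 136 ± 6.50 at 10 mM and 137 ± 1.24 at 20 mM (mean ± SD, n = 3 each). The composition differed more. The chains of type VI and COL7A1 took up a larger share at 20 mM, and those of type IV, the FACITs, the multiplexins and COL8A1 a smaller one. COL7A1 went from 8.67% of collagen FPKM in the control to 12% at 20 mM, and the FACITs from 6.50% to 3.35%. The multiplexins COL15A1 and COL18A1 went from 10.3% to 7.84%.

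The genes that act on collagen chains were followed in 7 lists with 60 genes in the files, of which 52 were tested. At 10 mM 2-DG 16 were higher and 13 lower, at 20 mM 17 were higher and 13 lower, and 0 were called between the doses. Over all genes tested, 12.1% were higher and 17.5% lower at 10 mM, and 15.4% higher and 21.6% lower at 20 mM. Those shares apply to each list below. Genes named below only to complete a count were named after their values were seen.

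Prolyl hydroxylation, the step that stabilises the collagen helix, had 5 higher and 3 lower of 9 tested genes at 20 mM. The higher genes were P4HB, P4HA1, P4HA2, P3H1 and P3H4, which include both kinds of subunit of prolyl 4-hydroxylase. P4HB, a subunit that is also the chaperone protein disulfide isomerase, had 99.4, 94.0 and 91.8 FPKM in the control, 173, 179 and 166 at 10 mM and 199, 194 and 193 at 20 mM (1.03 ± 0.06 SE, adjusted p = 1.17e-06 from limma). P3H2, a prolyl 3-hydroxylase known for acting on type IV collagen, went the other way with 6.19, 6.89 and 7.51 FPKM in the control, 3.40, 3.10 and 3.41 at 10 mM and 2.54, 2.24 and 2.47 at 20 mM (-1.20 ± 0.09 SE, adjusted p = 7.53e-06 from limma). Treated and control libraries did not overlap for either gene. P3H3 and CRTAP were the remaining lower genes of that list. Of 5 genes for lysyl hydroxylation and glycosylation 0 were higher by limma's test and 1, COLGALT2, was lower at 20 mM, with a mean of 9.25 FPKM in the control and 5.00 at 20 mM.

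Folding and export genes had 8 higher and 2 lower of 15 at 20 mM. PPIB, the cyclophilin that isomerises prolines in procollagen, had 29.4, 24.0 and 27.5 FPKM in the control, 55.0, 64.6 and 63.0 at 10 mM and 68.6, 69 and 63.1 at 20 mM (1.28 ± 0.09 SE, adjusted p = 4.44e-06 from limma). FKBP14, a further isomerase, rose from a mean of 2.56 to 5.94 FPKM, and MIA2, an export receptor partner, from 2.37 to 4.34 FPKM. FKBP7 fell from 1.06 to 0.311 FPKM, and CREB3L1, a transcription factor for secretory genes, was the other lower gene. SERPINH1, the collagen-specific chaperone HSP47, had means of 55.9, 49.5 and 50.8 FPKM and was not called (adjusted p = 0.157 at 20 mM from limma). The other higher genes were MIA3, SEC13 and KLHL12, which act in export from the endoplasmic reticulum, the ion channel gene TMEM38B and the zinc transporter gene SLC39A13.

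Of the 5 lysyl oxidases, which crosslink collagen, LOX was higher and LOXL1, LOXL2 and LOXL4 were lower at both doses. LOXL4 had 11, 12.7 and 10.8 FPKM in the control, 4.56, 3.89 and 4.76 at 10 mM and 3.83, 4.63 and 4.24 at 20 mM (-1.26 ± 0.10 SE, adjusted p = 9.2e-06 from limma). LOXL1 had means of 4.78, 2.56 and 2.44 FPKM, and LOX had 15.1, 21.9 and 20.8. Among 6 tested procollagen processing genes, 1 was higher and 1 lower at 20 mM, TLL2 and ADAMTS3, both under 0.5 FPKM. Of 8 tested receptors ITGA2 was higher and MRC2 and ITGA1 were lower at 20 mM. MRC2, which takes up collagen fragments, had 9.28, 10.3 and 9.18 FPKM in the control, 4.83, 5.24 and 4.95 at 10 mM and 4.23, 4.48 and 4.2 at 20 mM (-1.0 ± 0.07 SE, adjusted p = 6.57e-06 from limma). ITGA2, the collagen-binding integrin chain, had 23.8, 38.8 and 34.7 FPKM in the control, 74.3, 39.6 and 52.5 at 10 mM and 53.7, 51.9 and 63.9 at 20 mM, with a wide spread at 10 mM.

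Of 4 tested collagen-degrading proteases, MMP1 was higher and MMP14 lower at both doses. MMP1, the interstitial collagenase that cuts fibrillar collagen, had 10.1, 9.50 and 11.3 FPKM in the control, 36.1, 40.3 and 38.4 at 10 mM and 53.0, 51.2 and 56.5 at 20 mM (2.27 ± 0.07 SE, adjusted p = 1.44e-07 from limma). MMP14, a membrane-bound collagenase, had a mean of 219 FPKM in the control and 177 at both doses (-0.30 ± 0.05 SE at 20 mM, adjusted p = 0.00124 from limma). For MMP1 the groups were separated at each dose, and for MMP14 every treated library lay below the control.

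**Figure D5:**
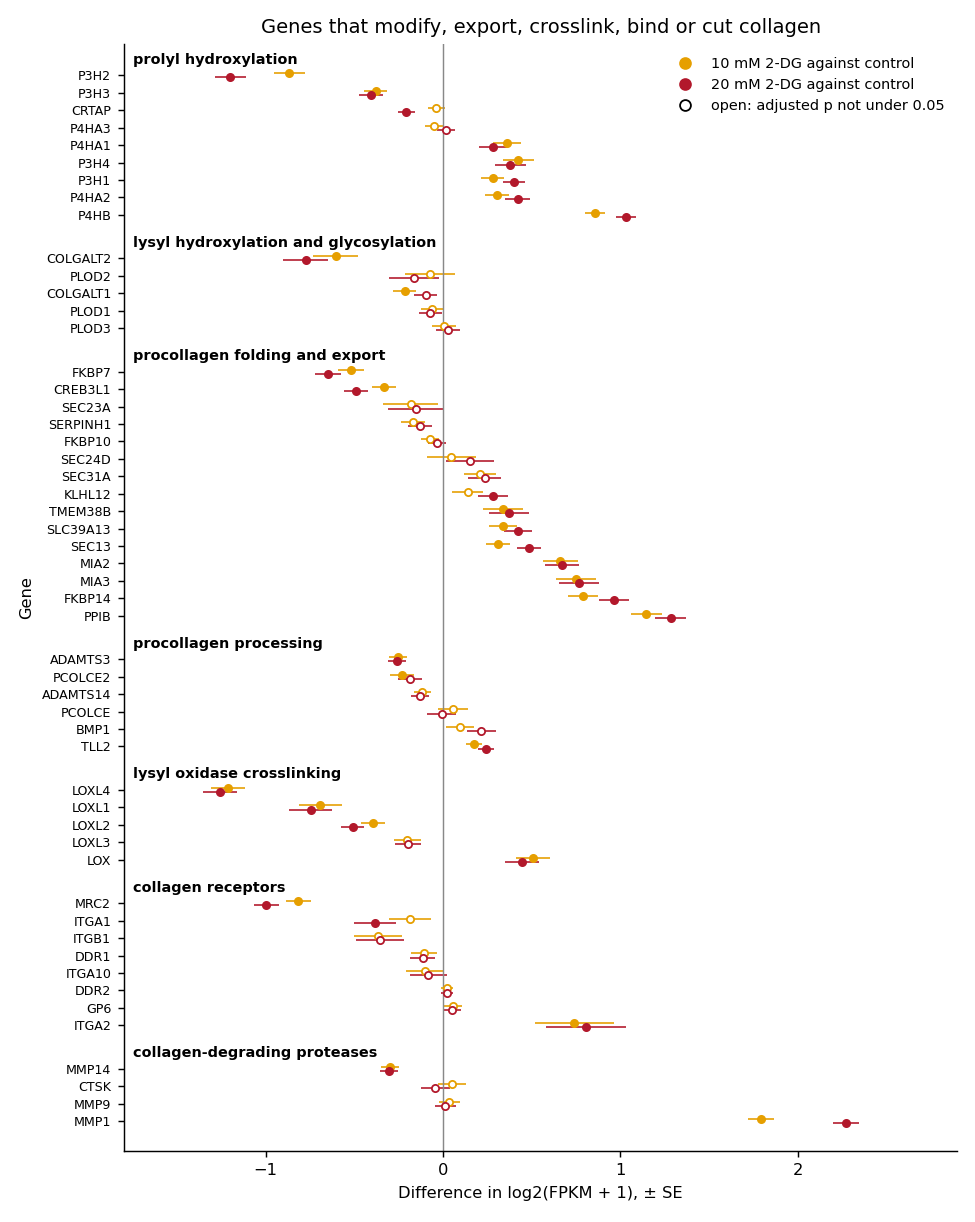
Difference in log2(FPKM + 1) from the control (x axis, with its SE from limma) of the 52 tested genes that modify, export, process, crosslink, bind or cut collagen, at 10 mM (orange) and 20 mM 2-DG (red). Filled points have an adjusted p under 0.05. MMP1 stands farthest right at 2.27, PPIB and P4HB lie right of 1 at 20 mM, and LOXL4 and P3H2 lie farthest left at -1.26 and -1.20.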

How the data were processed

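The deposited files hold FPKM values, which the authors made, 1 file per library. Per the labels, RNA was extracted with a Qiagen kit and libraries were made with a SMARTER mRNA-Seq kit, and the builds named are GRCh38 and hg38. The study's methods name phosphate-buffered saline for the control, a NovaSeq instrument, and DESeq2 for the authors' own calls, which used a p and a log2 fold change as thresholds (whether the p was adjusted is not stated). The aligner, the counting tool and the strand setting are not given in the sources used here. The lactate-treated cells were not analysed here.

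Within a library, the FPKM of a gene moves in steps of the worth of 1 read. Library totals and reads were recovered from them with GENCODE 29 exon lengths. For each gene a length was searched that makes all 9 values whole. One was found for all 32806 genes above 0, equal to GENCODE's for 48.3%, and the reads made up 99.8% to 99.9% of the totals. A common factor of reads and length cannot be seen. They may be reads or fragments and are not the authors' counts. The filter, the 95% exact binomial intervals and limma-voom used them. Those intervals pool the reads of the 3 libraries of a condition and cover counting error only.

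The main test was limma 3.58.1 in R 4.3.3 (lmFit, contrasts, eBayes with a trend) on log2(FPKM + 1), with all 9 libraries in a fit by condition, no block and Benjamini-Hochberg adjustment over 16572 genes. A fold change on that scale understates the change of low genes. On simulated data for 20 mM 2-DG against the control (16572 genes, 200 changed 2-fold), limma-trend and limma-voom recovered 100% of the changed genes and called 13 and 12 unchanged ones. The changed genes were drawn only from genes with many reads, and the same spread was set for every gene. Recovery of changes in low chains, or at the spread of the real libraries, was therefore not tested. Replicates had Pearson correlations of 0.989 to 0.996 and differed by more than sampling noise, so none were merged.

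Members, gene lists and tests were chosen with earlier results of these data known. Values in every library are given for tested chains with a mean of at least 1 FPKM in any condition or an adjusted p under 0.05 in any comparison (19 chains). Of the gene lists, values are given for up to 4 genes a list that were called with a difference past 0.58, some by library and some as means only. Collagen classes and lists were written from general knowledge. Alternatives were the pseudocount (0.1, 0.01), no filter, at least 10 reads in every library, median-ratio scaling, limma-voom, the replicate number as a block, the study's thresholds and each library left out. limma-voom with median-ratio factors, and the study's thresholds with limma-voom, were added after the data were seen. The p of those thresholds was taken before adjustment. Coordinates in the text are GRCh38, from GENCODE 29 for genes and RefSeq for sequences.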

Additional observations from a re-analysis of the deposited data

How the results depend on the processing

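Among higher chains at 10 mM 2-DG, the count of 5 became 3 with no filter and 8 with limma-voom and median-ratio factors (added after the data were seen), and leaving out 1 library gave 3 to 6. Over all genes, the higher ones went from 2011 of 16572 to 1412 of 32806 with no filter, where 40 chains were tested. They numbered 2491 of 16572 with limma-voom and median-ratio factors, and 1505 to 2043 with 1 library left out. With the study's thresholds the higher chains numbered 0 at 10 mM and 0 at 20 mM, and the lower ones 1 and 2, in place of 5, 7, 6 and 9, on the log2(FPKM + 1) scale, which understates low chains. With limma-voom (added after the data were seen) these thresholds gave 4 higher and 5 lower at 20 mM. The other counts stayed within 1.5 times under every alternative run. Leaving out 1 library gave 6 to 7 lower chains at 10 mM, and 5 to 7 higher and 7 to 9 lower at 20 mM. Over all 16572 genes these ranges were 2343 to 2843 lower at 10 mM, and 1904 to 2799 higher and 2752 to 3803 lower at 20 mM. The comparison of the doses gave 0 in each direction throughout. Signs turned for COL5A1 and COL6A3, which had no call, when 1 library was left out: the difference of COL5A1 at 20 mM lay between -0.13 and 0.020, that of COL6A3 at 10 mM between -0.12 and 0.051 and at 20 mM between -0.11 and 0.024. The highest came without control library 2. The replicate block gave 5 higher and 6 lower chains at 10 mM and 7 higher and 8 lower at 20 mM, and changed 1 call, that of COL4A6. The numbers were not taken to pair libraries: deviations of libraries with the same number correlated between -0.41 and 0.29 over 9 pairs, and those with different numbers between -0.23 and 0.52 over 18. At 20 mM limma-voom called 8 higher and 10 lower of 27 chains, against 2650 higher and 3656 lower of all 16572 genes. It added COL24A1 (31 reads against 6, all 6 in control library 2) and COL9A3 (12 against 44), and the cause was not tested. With 3 libraries a condition, exact tests of single values cannot fall below 0.1.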
